A study of Mus musculus with 2 samples.

Results

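The genes described here are 55 genes of G2 phase and mitosis, chosen by name: cyclins and their kinase, spindle checkpoint, kinetochore, kinesin, cytokinesis and condensin genes. They are 55 of 39017 genes in the count table, and all 55 passed the filter of at least 20 counts summed over both libraries, which 13880 genes passed (called measured below). RNA came from Lin- Sca-1+ c-Kit+ (LSK) bone marrow cells, a sorted fraction in which blood stem cells and early progenitors are found. One library came from a pool of 6 miR-146a-/- mice and the other from a pool of 12 WT mice. All were C57BL/6J animals aged 10 to 14 weeks, and the labels give neither their sex nor the design of the deleted allele. With 1 library from 1 pool per genotype, no difference below has a replicate check, no p-value is given, and every statement compares these libraries.

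Genes of this programme are transcribed late in the cell cycle. Cyclin A and B bind the kinase CDK1 to drive entry into mitosis, condensin compacts chromosomes, kinetochores attach them to the spindle, and the checkpoint holds the anaphase-promoting complex until every chromosome is attached. Separase then cuts cohesin, and chromosomal passengers, kinesins and RhoA regulators split the cell. In bone marrow most stem cells are quiescent, while multipotent progenitors cycle, so the summed RNA of this programme reflects both the number of dividing cells and the RNA each holds. In bulk RNA a smaller number of dividing cells and less RNA per dividing cell cannot be told apart.

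miR-146a, the microRNA missing from the knockout mice, represses adaptors of Toll-like and interleukin-1 receptor signalling. Its gene, Mir146, lies at chr11:43374397-43374461 on the minus strand (GRCm38) and had 0 counts in both libraries, so the deletion could not be checked here. The mature strand is shown because its bases 2 to 8, in capitals, are the seed searched for among the members (RefSeq, GRCm38.p6).
mmu-miR-146a-5p: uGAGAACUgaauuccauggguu
A match to that seed, AGTTCTC, was present in the 3' untranslated region (the longest one annotated) of 6 of the 55 members (10.9%), against 13.6% of 12259 measured protein-coding genes. The 6 were Birc5, Bub3, Ccna2, Cdk1, Kif20b and Ube2c. The match is in capitals in the sites of the CDK1 kinase gene and of the ubiquitin-conjugating enzyme gene of the anaphase-promoting complex.
Cdk1: cactaggcaggAGTTCTCaaccagcctaga
Ube2c: ttgcctcagacAGTTCTCagaggcaagact
All 6 had a log2 ratio of miR-146a-/- over WT below 0, from -0.57 for Birc5 to -0.12 for Ccna2, as did 46 of all 55 members.

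Many members share promoter motifs, which the rule that chose them did not use. Mitotic promoters are known for a cell cycle homology region (CHR), bound by the DREAM and MuvB complexes, and for CCAAT boxes, bound by NF-Y. RefSeq windows of 250 bases before to 50 after a transcription start (GRCm38.p6) were found for 46 members, with 49 windows in all. The CHR words TTTGAA or TTCGAA, on either strand, occurred in 38 of those windows (77.6%), against 14.0% of 12472 windows of measured protein-coding genes and 19.2% of all 32851 windows in the table. CCAAT, on either strand, occurred in 37 (75.5%), against 37.5% and 37.4%. A CHR and a CCAAT word that adjoin can share letters, and each was then counted. Both occurred in 34 (69.4%), against 5.68% of windows of measured protein-coding genes. A match is a description of the letters, not evidence of binding.

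The promoter windows of 5 members in the comparisons below are shown 5' to 3' with both motifs in capitals. The gene of cyclin B2 has its window at chr9:70421505-70421804 (minus strand) and holds 3 CCAAT boxes, at -87, -54 and -21 from the start, each 33 bases from the next, and CHR words at -167 and 5. Cks1b at chr3:89418242-89418541 (minus) and Cks2 at chr13:51644982-51645281 (plus) encode paralogous small subunits of cyclin-dependent kinases, and only the Cks1b window holds a CHR. Ncapg at chr5:45669675-45669974 (plus) encodes a condensin subunit. Pttg1 encodes securin, and neither motif is in its window at chr11:43425932-43426231 (minus). That window lies wholly inside the gene as annotated in GENCODE M21 (chr11:43420250-43426251). Bases before the annotated 5' end of Pttg1 were therefore not searched.
Ccnb2: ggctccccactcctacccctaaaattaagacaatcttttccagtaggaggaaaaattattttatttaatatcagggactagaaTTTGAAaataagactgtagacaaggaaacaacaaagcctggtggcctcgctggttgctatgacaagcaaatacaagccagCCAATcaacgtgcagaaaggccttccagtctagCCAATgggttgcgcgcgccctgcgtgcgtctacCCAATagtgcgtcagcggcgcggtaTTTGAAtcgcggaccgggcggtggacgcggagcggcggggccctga
Cks1b: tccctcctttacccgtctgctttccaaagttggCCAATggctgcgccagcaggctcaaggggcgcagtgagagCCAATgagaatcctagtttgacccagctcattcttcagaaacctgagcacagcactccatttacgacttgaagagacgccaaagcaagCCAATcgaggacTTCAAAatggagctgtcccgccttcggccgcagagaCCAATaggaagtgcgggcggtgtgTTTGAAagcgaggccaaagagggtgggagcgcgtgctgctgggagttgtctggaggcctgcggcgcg
Cks2: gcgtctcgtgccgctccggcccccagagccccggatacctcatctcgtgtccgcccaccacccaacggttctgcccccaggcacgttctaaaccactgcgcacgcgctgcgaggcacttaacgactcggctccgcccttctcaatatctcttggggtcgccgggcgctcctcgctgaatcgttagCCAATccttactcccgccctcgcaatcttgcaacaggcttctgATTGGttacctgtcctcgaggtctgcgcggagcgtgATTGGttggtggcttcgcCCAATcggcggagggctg
Ncapg: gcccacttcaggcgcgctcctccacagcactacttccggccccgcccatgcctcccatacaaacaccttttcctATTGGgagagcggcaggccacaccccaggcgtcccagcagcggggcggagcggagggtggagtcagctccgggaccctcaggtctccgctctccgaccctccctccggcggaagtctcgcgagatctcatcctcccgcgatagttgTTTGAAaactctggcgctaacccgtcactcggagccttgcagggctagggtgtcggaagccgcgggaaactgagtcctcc
Pttg1: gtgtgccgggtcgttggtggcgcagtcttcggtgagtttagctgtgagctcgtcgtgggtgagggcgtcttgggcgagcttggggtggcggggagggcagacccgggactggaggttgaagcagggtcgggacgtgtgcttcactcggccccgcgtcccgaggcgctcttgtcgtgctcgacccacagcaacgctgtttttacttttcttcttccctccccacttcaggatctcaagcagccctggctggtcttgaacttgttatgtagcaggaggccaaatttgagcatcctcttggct
Members with and without a CHR in these windows had overlapping ranges of ratios. The median log2 ratio was -0.27 for the 35 with one and -0.33 for the 11 without, with ranges of -0.78 to 0.25 and -0.61 to 0.58. The value of 0.58 is that of Pttg1, whose window has the limit given above.

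The libraries differed in composition in ways that bear on scaling. Total counts were 22231389 in the miR-146a-/- library and 35069136 in the WT library, and protein-coding genes held 51.5% and 81.4% of them. A list of 5 features taken to collect ribosomal RNA reads (Gm42418, Mir6236, Gm15564, Gm24270 and Lars2) held 7048696 counts in miR-146a-/- and 795824 in WT. Whether their reads are ribosomal was not tested. Lars2 is itself a protein-coding gene, with 323060 counts in miR-146a-/- and 19871 in WT. Ratios use TMM scaling over the measured genes, under which the median of all measured genes was -0.01. The LSK markers were abundant in both libraries, with Kit at 728 normalised CPM (counts scaled to library size by TMM) in miR-146a-/- and 558 in WT. Among T and NK cell markers, Cd3e, Cd3d, Cd3g and Cd8a had 0 counts in both, while Cd4 had 68 counts in miR-146a-/- and 86 in WT and was called higher (1.13, 0.66 to 1.62), Klrb1c had 30 and 44 counts, and Nkg7 had 530 and 1602. A list of 12 immediate early genes, which respond quickly to stimulation, summed to 14964 normalised CPM in miR-146a-/- and 3706 in WT. All 12 were called higher. Of 9 granulocyte and monocyte progenitor markers, 7 were measured and 3 called higher, and the list summed to 486 normalised CPM in miR-146a-/- and 310 in WT. The sums were 5.92 in miR-146a-/- and 13.9 in WT for neutrophil, 299 and 397 for B and plasma cell, 37.8 and 37.3 for T and NK cell, and 36.8 and 33.9 for erythroid markers. They were 67.6 in miR-146a-/- and 46.2 in WT for megakaryocyte, 89.5 and 56.8 for macrophage, and 63.7 and 58.1 for stromal and endothelial markers. Of measured markers, 3 of 6 for megakaryocytes were called higher, where 5.35% of all measured genes were. Called lower were 3 of 6 neutrophil and 2 of 5 B and plasma cell markers, where 1.53% of all measured genes were. Calls numbered 0 for erythroid, macrophage and stromal and endothelial markers. The X-linked RNA Xist had 49105 counts in miR-146a-/- and 10988 in WT, and 4 Y-linked genes were called lower. The part of these differences in the results below was not tested.

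Transcripts of the programme were slightly less abundant in the miR-146a-/- library. Of 55 members, 46 had a log2 ratio below 0 and 9 above it, where 51.2% of all measured genes had a ratio below 0. The median was -0.27 (0.830-fold), against -0.01 over all measured genes. By the rule that the whole 95% counting interval lie beyond 1.5-fold, 0 members were higher and 0 lower, where 6.87% of all measured genes were called (5.35% higher and 1.53% lower). Scaled by total counts, which puts the median of all genes at -0.83, 50 members were lower and 0 higher, and scaled by protein-coding counts 4 were lower and 0 higher. Under each of these scalings the members' median lay 0.26 below that of all genes. The share of all genes called by total or protein-coding counts is not given here, so those calls lack a background. Counting intervals lay wholly below 0 for 40 members, wholly above it for 4 and on both sides for 11. Of all measured genes, 29.0% had an interval wholly below 0 and 28.0% wholly above it. All members had at least 200 summed counts. Among the 10730 genes at that depth, 5.67% were called (4.11% higher and 1.56% lower), 35.9% had an interval wholly below 0, 29.6% wholly above it, and 55.1% a ratio below 0. Intervals cover counting error only: the labels record no molecular identifiers, and the spread between mice is hidden by pooling. The members nearest a call were Ncapg and Cks1b, whose intervals ended at -0.56.

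All members together had 38008 counts in miR-146a-/- and 116282 in WT, or 2273 normalised CPM (2250 to 2296, exact Poisson) and 2494 (2480 to 2509). The log2 ratio of the sums was -0.13 (-0.15 to -0.12). Mki67 and Top2a hold much of that sum, and without them it was -0.19 (-0.21 to -0.17). By group, the log2 ratio of the sums was -0.41 for the spindle checkpoint, -0.35 for mitotic kinases, -0.24 for cyclins and CDK1, -0.23 for kinesins, -0.22 for anaphase genes and -0.17 for passengers and cytokinesis. It was nearer to 0 for spindle assembly and transcription factors (-0.11 each), for kinetochore and centromere genes (-0.07, -0.13 to -0.0014) and for condensin and mitotic chromosomes (-0.04, -0.06 to -0.01). In that last group Mki67 held 6557 of 17455 counts in miR-146a-/- and 15324 of 49996 in WT, and 6 of 7 ratios lay below 0. As a share of protein-coding counts, which needs no TMM scaling, the members held 0.332% (Clopper-Pearson 0.329 to 0.335%) in miR-146a-/- and 0.408% (0.405 to 0.410%) in WT. As a share of all counts they held 0.171% and 0.332%, a wider gap. Both gaps include a shift of genes in general. The median of all measured genes was -0.17 when scaled by protein-coding counts and -0.83 when scaled by all counts.

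**Figure D1:**
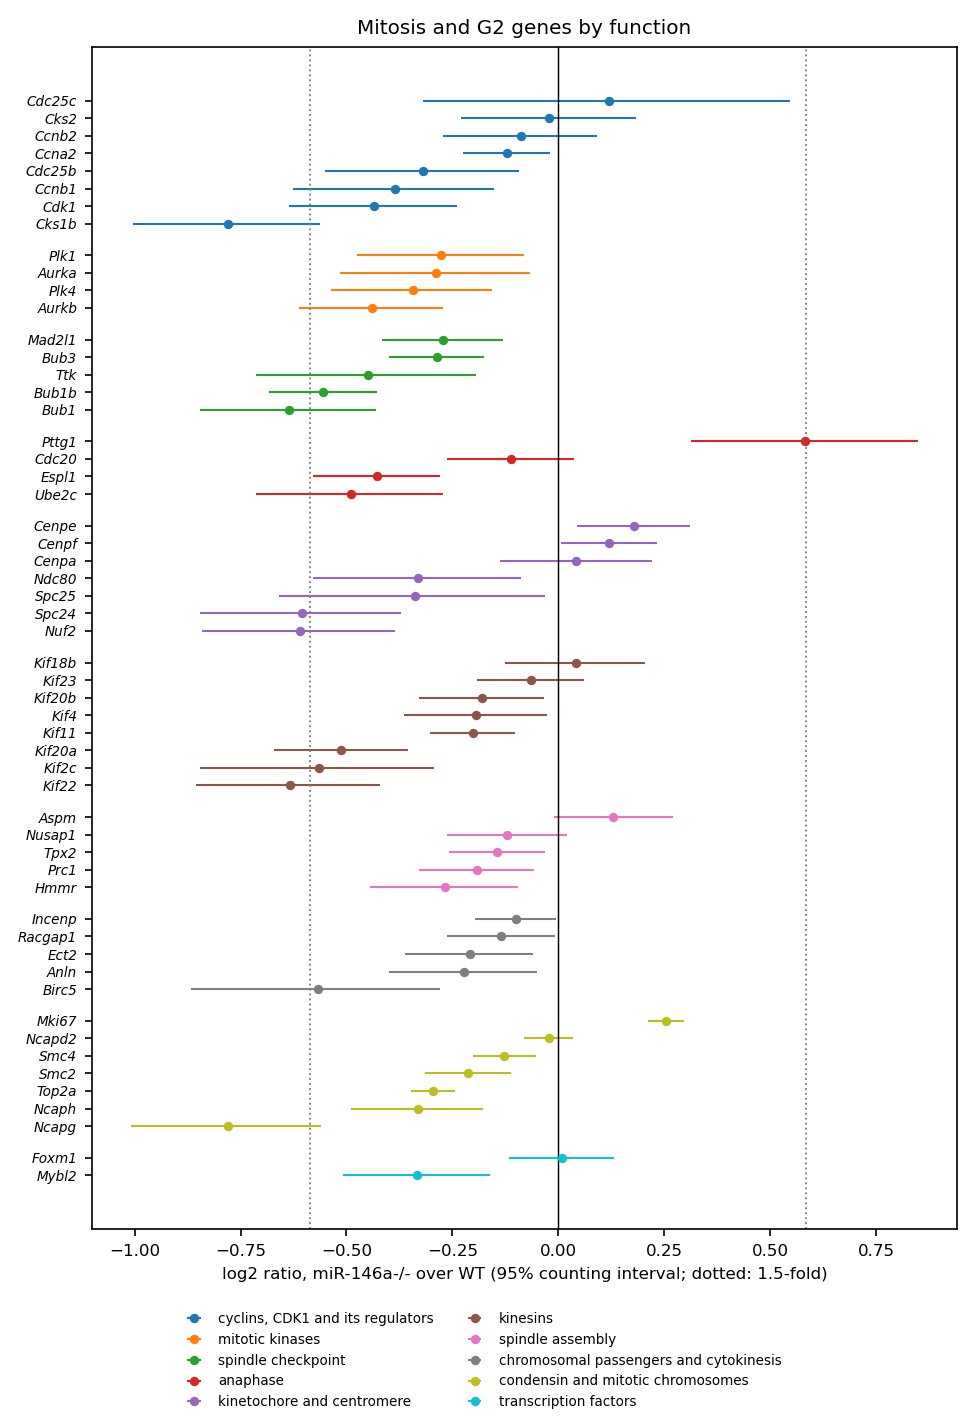
Log2 ratio of miR-146a-/- over WT for each of the 55 members (points) with its exact 95% counting interval (bars), grouped by function and ordered within each group. Dotted lines mark 1.5-fold: no interval lies wholly beyond them, 40 lie wholly below 0, and Pttg1 (0.58) stands at the far right.

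Cyclins, CDK1 and its regulators had a median ratio of -0.22, with 7 of 8 below 0 and 5 of 8 intervals wholly below it. Cdk1, the kinase of mitotic entry, had 268 counts in miR-146a-/- and 1010 in WT, or 16.0 and 21.7 normalised CPM, a log2 ratio of -0.43 (-0.63 to -0.24). Its partners differed in size: Ccnb1 was at -0.38 (-0.63 to -0.15), with 189 and 688 counts, while Ccna2 was at -0.12 (-0.22 to -0.02), with 1033 and 3133 counts. The interval of Ccnb2, with 334 and 990 counts, included 0, at -0.09 (-0.27 to 0.09). Ccnb1 has pseudogenes that match it at 96.6 to 99.2% identity, and those in the table had 0 or 1 count in each library. The CDC25 phosphatases remove inhibitory phosphates from CDK1. Cdc25b was at -0.32 (-0.55 to -0.09), with 203 and 706 counts, and Cdc25c at 0.12 (-0.32 to 0.55), with 64 and 164 counts, the lowest depth among the members.

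The CKS paralogs lay far apart. Cks1b had 206 counts in miR-146a-/- and 986 in WT, or 12.3 and 21.2 normalised CPM, and a ratio of -0.78 (-1.004 to -0.56). Cks2 had 264 counts in miR-146a-/- and 747 in WT, or 15.8 and 16.0 normalised CPM, and a ratio of -0.02 (-0.23 to 0.18). After the length adjustment described below, Cks1b was at -0.57 and Cks2 at 0.19. Within a library, no scaling enters: the Cks1b to Cks2 count ratio was 0.780 in miR-146a-/- and 1.32 in WT, a ratio of ratios of 0.591 (0.479 to 0.730). Cks2 has pseudogenes that match 240 bases of it at 98.3% identity or more, and those in the table had 0 or 1 count.

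The mitotic kinases were the most uniform group, with 4 of 4 intervals wholly below 0 and ratios from -0.44 to -0.28. Aurkb, the kinase of the chromosomal passenger complex, had 363 counts in miR-146a-/- and 1373 in WT (-0.44, -0.61 to -0.27). Aurka, the centrosome and spindle kinase, had 214 and 729 counts (-0.29, -0.52 to -0.07). Plk1, which acts from mitotic entry to cytokinesis, had 276 and 932 counts (-0.28, -0.48 to -0.08), and Plk4, which licenses centriole duplication, had 294 and 1040 counts (-0.34, -0.54 to -0.16).

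Spindle checkpoint genes had the lowest median of the 10 groups, -0.45, and all 5 intervals lay below 0. Bub1, a kinase that docks checkpoint proteins at kinetochores, had 236 counts in miR-146a-/- and 1022 in WT, or 14.1 and 21.9 normalised CPM (-0.64, -0.85 to -0.43). Bub1b, which encodes the inhibitor BUBR1, had 626 and 2564 counts (-0.56, -0.68 to -0.43). Ttk, the kinase MPS1 that starts checkpoint signalling, was at -0.45 (-0.71 to -0.19), with 156 and 594 counts. Their partners Bub3, with 848 and 2883 counts, and Mad2l1, with 522 and 1756 counts, were nearer to 0, at -0.29 (-0.40 to -0.18) and -0.27 (-0.41 to -0.13). After the length adjustment described below, Mad2l1 was at -0.47 and Ttk at -0.37, so their order reversed. Bub3 was then at -0.27.

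The anaphase group held the widest spread. Ube2c, the ubiquitin-conjugating enzyme of the anaphase-promoting complex, had 214 counts in miR-146a-/- and 838 in WT (-0.49, -0.71 to -0.27). Espl1, which encodes separase, had 463 and 1736 counts (-0.43, -0.58 to -0.28). The coactivator gene Cdc20 had 487 and 1466 counts (-0.11, -0.26 to 0.04). Pttg1 stood alone above 0, and is described below.

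Within the kinetochore group, the NDC80 complex lay below 0, while Cenpe and Cenpf lay above it under TMM scaling, a direction that depended on the setting. Cenpe was at -0.03 and Cenpf at -0.08 after the length adjustment described below, and at 0.02 and -0.04 by protein-coding totals. The NDC80 complex binds spindle microtubules, and its 4 subunit genes ran from -0.61 to -0.33: Nuf2, with 199 counts in miR-146a-/- and 847 in WT, was at -0.61 (-0.84 to -0.39), and Spc24, with 182 and 772 counts, at -0.60 (-0.85 to -0.37). Spc25 was at -0.34 (-0.66 to -0.03) and Ndc80 at -0.33 (-0.58 to -0.09). Cenpe, a kinetochore motor, had 642 and 1581 counts (0.18, 0.04 to 0.31). Cenpf, a large kinetochore and nuclear matrix protein gene, had 877 and 2250 counts (0.12, 0.01 to 0.23). Cenpa, the centromeric histone variant, had 351 and 950 counts and was at 0.04 (-0.14 to 0.22).

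Of 8 kinesin genes, 7 had a ratio below 0 and 6 an interval wholly below it, with a median of -0.20. Kif22, a chromosome-arm motor, had 216 counts in miR-146a-/- and 935 in WT (-0.63, -0.86 to -0.42). The microtubule depolymerase gene Kif2c had 136 and 561 counts (-0.56, -0.85 to -0.29), and Kif20a, a motor of the central spindle, had 412 and 1638 counts (-0.51, -0.67 to -0.36). Kif11, which slides spindle poles apart and was the most abundant kinesin per length, had 1063 and 3408 counts (-0.20, -0.30 to -0.10). Kif4 and Kif20b were at -0.19 and -0.18. Kif23 (-0.06, -0.19 to 0.06) and Kif18b (0.04, -0.13 to 0.21), with 413 counts in miR-146a-/- and 1119 in WT, had intervals that included 0. Exons of Kif20a overlap those of Cdc23 on the other strand, which was at -0.33, and those of Kif4 overlap Pdzd11, at 0.23; whether strand was used in counting is not given in the sources used here.

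Spindle assembly factors lay nearest to 0 among the groups of more than 2 genes, with a median of -0.14. Hmmr was at -0.27 (-0.45 to -0.10) and the midzone crosslinker gene Prc1 at -0.19 (-0.33 to -0.06). Tpx2, which activates Aurora A on the spindle, had 829 counts in miR-146a-/- and 2553 in WT (-0.14, -0.26 to -0.03). The intervals of Nusap1 (-0.12, -0.26 to 0.02) and of the spindle pole gene Aspm (0.13, -0.01 to 0.27), with 580 counts in miR-146a-/- and 1477 in WT, included 0.

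Chromosomal passengers and cytokinesis genes had 5 of 5 intervals below 0 and a median of -0.21. Birc5, which encodes survivin, was the lowest, with 121 counts in miR-146a-/- and 500 in WT (-0.57, -0.87 to -0.28). Its scaffold partner Incenp, the most abundant member of this group per length, had 1188 and 3551 counts (-0.10, -0.20 to -0.01). Anln and the RhoA activator gene Ect2 were at -0.22 and -0.21, and Racgap1 at -0.13 (-0.26 to -0.01).

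Condensin I subunits were unequal. Ncapg, a HEAT-repeat subunit, had 200 counts in miR-146a-/- and 958 in WT, or 12.0 and 20.6 normalised CPM, with a ratio of -0.78 (-1.01 to -0.56), the lowest of the 55 members. Ncapd2, the other HEAT-repeat subunit, had 3373 and 9551 counts, or 202 and 205 normalised CPM (-0.02, -0.08 to 0.03). Between them lay the kleisin Ncaph (-0.33, -0.49 to -0.18) and the ATPases Smc2 (-0.21, -0.32 to -0.11) and Smc4 (-0.13, -0.20 to -0.05). Per kb of transcript, the highest condensin I subunit stood 14.5-fold above the lowest in miR-146a-/- and 8.56-fold above it in WT. A small RNA gene, Scarna10, overlaps Ncapd2 on the same strand, with 536 and 2394 counts of its own, and Lcorl exons overlap Ncapg on the other.

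Top2a and Mki67, both widely used as markers of dividing cells, differed in direction under TMM scaling, though not by all counts. Top2a, the topoisomerase that untangles sister chromatids, had 3912 counts in miR-146a-/- and 13379 in WT, or 234 and 287 normalised CPM (-0.30, -0.35 to -0.24). Mki67, which coats mitotic chromosomes, had 6557 and 15324 counts, or 392 and 329 normalised CPM (0.25, 0.21 to 0.30). Within a library, Top2a had 0.597 counts per Mki67 count in miR-146a-/- and 0.873 in WT. Scaled by all counts or by protein-coding counts, the distance between the markers stays the same, but all 9 ratios above 0, Mki67 among them, lie below it by all counts.

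Of the transcription factors that drive this programme, Mybl2 had 354 counts in miR-146a-/- and 1243 in WT (-0.33, -0.51 to -0.16), and Foxm1 had 715 and 1982 counts (0.01, -0.12 to 0.13). A pseudogene matches 742 bases of Mybl2 at 99.7% identity.

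**Figure D2:**
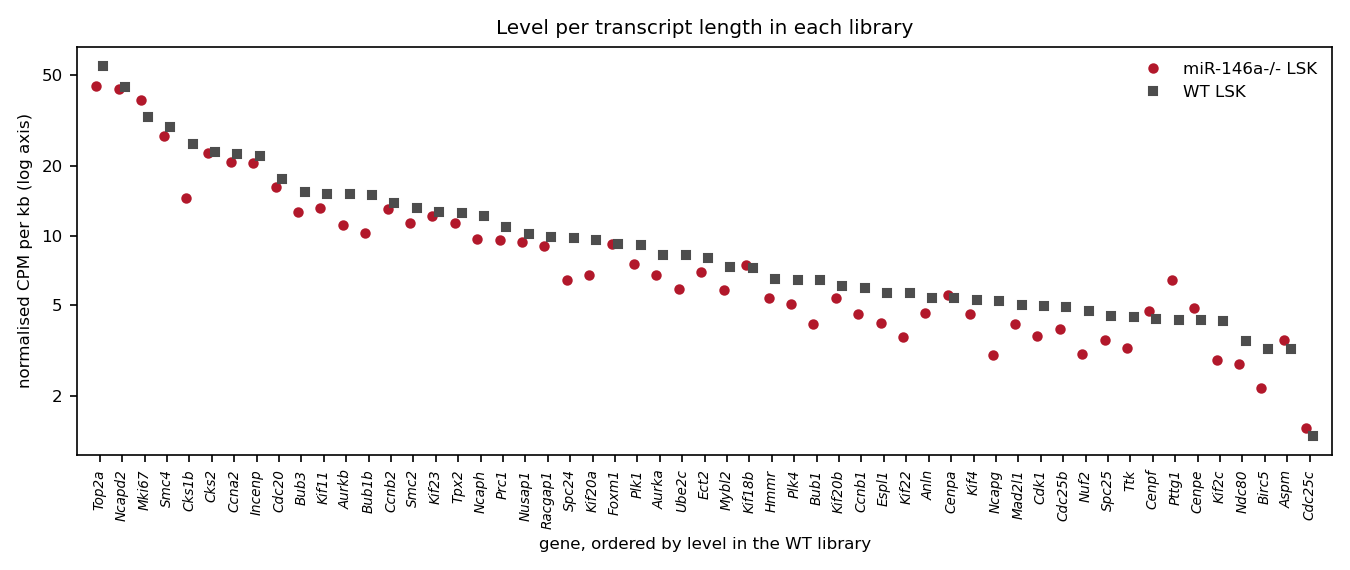
Normalised CPM per kb of longest transcript (log axis) for each member in the miR-146a-/- library (circles) and the WT library (squares), ordered by level in WT. Top2a leads both libraries, at 44.8 in miR-146a-/- and 54.97 in WT, and Cks1b stands out among abundant members at 14.5 and 24.9.

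Levels per kb of transcript spanned 1.45 to 44.8 in miR-146a-/- (median 6.43) and 1.34 to 54.97 in WT (median 8.001). The order was much the same in both, with a Spearman correlation of 0.95 over the 55 genes, which share both libraries. Top2a, Ncapd2, Mki67 and Smc4 were the highest in either library. Cdc25c was the lowest in both.

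Comparing members within a library removes the scaling altogether. Of 23 pairs of partners or paralogs, chosen after their values were seen, 13 had a ratio of ratios whose counting interval excluded 1 and 10 did not. Because of that choice, the tally gives no rate for gene pairs. Among pairs whose interval included 1 were Aurka to Aurkb (1.11, 0.912 to 1.35), Plk1 to Plk4 (1.05, 0.865 to 1.27), Bub1 to Bub1b (0.946, 0.797 to 1.12) and Smc2 to Smc4 (0.942, 0.863 to 1.03). So did that of the motor Kif23 to its centralspindlin partner Racgap1 (1.05, 0.926 to 1.19). The intervals of Ncapg to Ncapd2 (0.591, 0.503 to 0.693) and Cenpe to its kinetochore partner Bub1b (1.66, 1.46 to 1.89) excluded it. Such ratios keep any effect of unequal transcript length. After the length adjustment described below, Cenpe went from 0.18 to -0.03 and Bub1b from -0.56 to -0.49. Foxm1 to Mybl2 was at 1.27 (1.09 to 1.47).

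**Figure D3:**
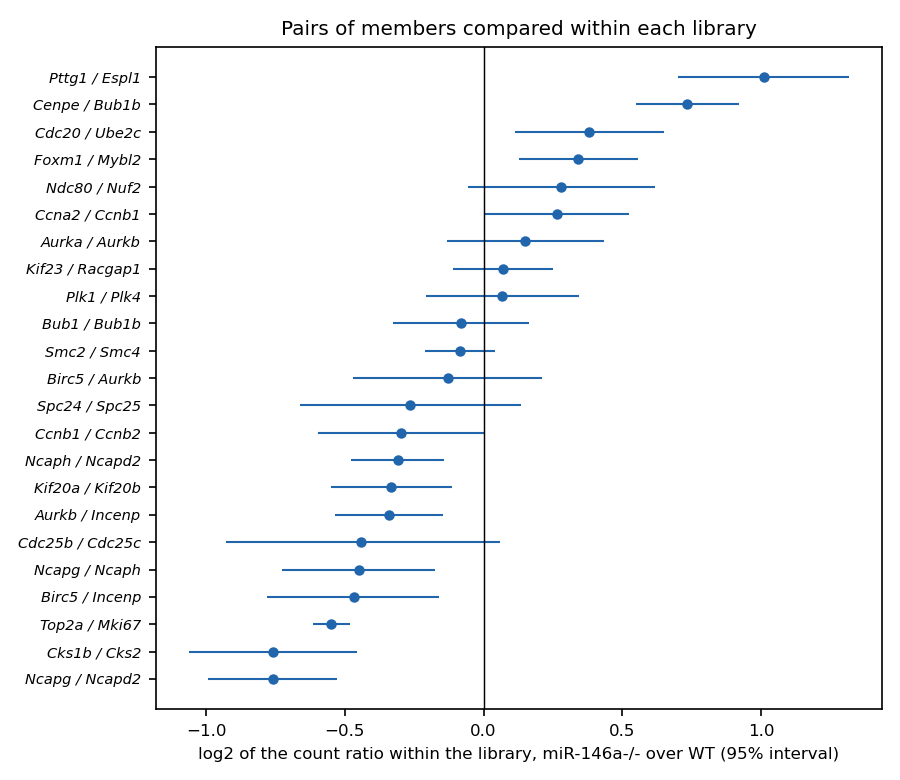
Log2 of the count ratio of each gene pair in the miR-146a-/- library over the same ratio in the WT library, with exact 95% intervals, ordered by size. Ncapg / Ncapd2 and Cks1b / Cks2 are at the lower end (-0.76 each) and Pttg1 / Espl1 at the upper end (1.01).

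Pttg1, the highest member, is also the one beside the deleted microRNA. Securin, its product, holds separase inactive until anaphase. Pttg1 lies at chr11:43420250-43426251 on the minus strand, 45.8 kb from Mir146 and the nearest measured gene to it. It had 180 counts in miR-146a-/- and 335 in WT, or 10.8 and 7.19 normalised CPM, a ratio of 0.58 (0.31 to 0.85). Per separase count (Espl1) there were 0.389 Pttg1 counts in miR-146a-/- and 0.193 in WT, a ratio of ratios of 2.01 (1.63 to 2.49). The other 5 measured genes within 1 Mb ran from -0.26 for Ttc1 to 0.25 for 4933415A04Rik, which had 9 and 21 counts. Of these, Slu7 was at 0.04 (-0.07 to 0.15) and Pwwp2a at 0.08 (-0.06 to 0.22). A local effect of the modified chromosome and an effect of microRNA loss on Pttg1 cannot be told apart in this design.

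Ratios also went with transcript length, as they did over all protein-coding genes. Of the 5 members with a longest transcript above 7000 bases, Cenpf, Mki67, Aspm and Cenpe had ratios from 0.12 to 0.25 and Mad2l1 was at -0.27. Of the 50 shorter ones, 45 had a ratio below 0. Over 12319 measured protein-coding genes, the median ratio was -0.21 in the shortest decile of length and 0.20 in the longest, with a Spearman correlation of 0.23; over the members it was 0.25, and 0.08 without those 4 long genes. Set against genes of their own length decile, the ratios became 0.05 for Mki67, -0.03 for Cenpe, -0.07 for Aspm and -0.08 for Cenpf. Mad2l1 went from -0.27 to -0.47, Cks1b from -0.78 to -0.57 and Cks2 from -0.02 to 0.19. Ncapg was then at -0.76 and Pttg1 at 0.72. The median of all members after that adjustment was -0.22, with 47 of 55 below 0 and 33 intervals wholly below it.

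**Figure D4:**
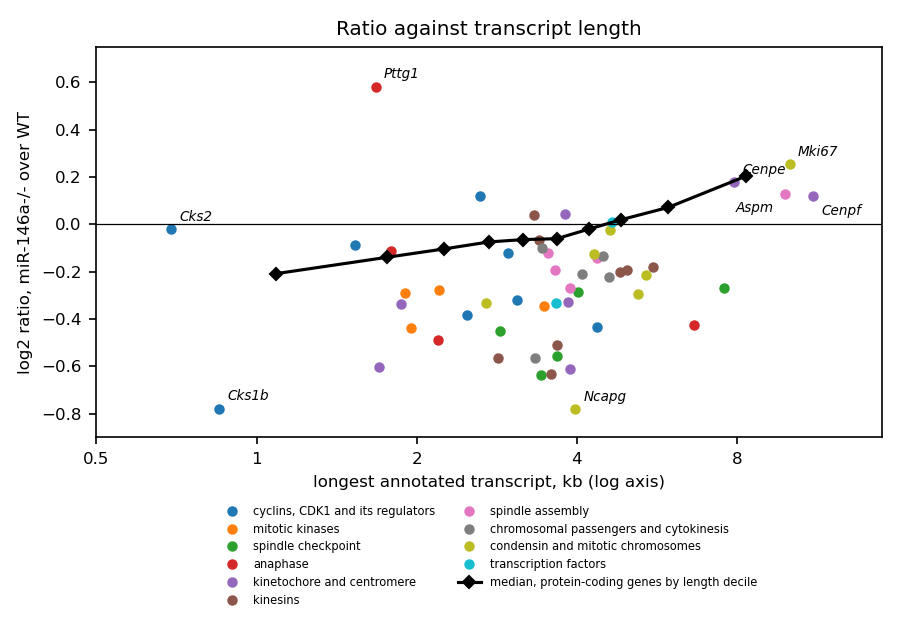
Log2 ratio of miR-146a-/- over WT against longest annotated transcript (kb, log axis) for the 55 members, coloured by function, with the median of measured protein-coding genes in each length decile (black line). The long genes Mki67, Cenpe, Aspm and Cenpf lie near the line, while most other members lie under it.

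Of 116 measured genes in 9 further lists of mitotic genes, 0 were higher and 1 lower, 89 had a ratio below 0, and the median was -0.17. Of all measured genes, 5.35% were higher, 1.53% lower, and 51.2% had a ratio below 0. List medians ran from -0.36 to -0.02. The log2 ratio of the summed level was -0.06 over all 116, and lay above 0 for other mitotic kinesin and spindle genes (0.07, 0.04 to 0.09) and for cohesin (0.03, 0.01 to 0.05). Single genes weigh on these sums. In the spindle list, Numa1 alone held 11119 of 19224 counts in miR-146a-/- and 26268 of 51138 in WT. Nipbl held 3823 of 27824 cohesin counts in miR-146a-/- and 8286 of 76095 in WT. Ratios lay below 0 for 13 of 18 genes of the spindle list and 9 of 13 cohesin genes. The 1 gene called lower was Cenpk, an inner kinetochore gene with 41 counts in miR-146a-/- and 272 in WT (-1.25, -1.76 to -0.77). Its neighbour in the inner kinetochore, Cenpw, had 24 and 150 counts (-1.16, -1.85 to -0.54), while Zwint, which links the kinetochore to the checkpoint, was at 0.30 (0.20 to 0.40) and the CENP-A chaperone gene Hjurp at 0.17 (0.12 to 0.23). The median of that list of 26 was -0.21.

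Subunits of the anaphase-promoting complex had 14 of 15 ratios below 0 and a median of -0.26, with Anapc5 at -0.39 (-0.46 to -0.33) and Cdc16 at -0.46 (-0.61 to -0.32). Mitotic entry genes had a median of -0.36 over 13 measured, led by the histone kinase gene Haspin (-0.65, -0.97 to -0.34) and Pbk (-0.57, -0.83 to -0.33). Further checkpoint genes had 6 of 6 ratios below 0 and a median of -0.29, with Kntc1 at -0.49 (-0.65 to -0.33) and Zw10 at -0.42 (-0.63 to -0.22). Among further passenger and cytokinesis genes (median -0.21), Cdca8, which encodes borealin, was at -0.52 (-0.72 to -0.32), Cdca2 at -0.41, Cit at 0.31 (0.21 to 0.42) and Iqgap3 at 0.16. For other spindle genes the median was -0.17, with Gtse1 at -0.62 (-0.89 to -0.36), Haus4 at -0.48 and Numa1 at 0.24 (0.21 to 0.27).

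Cohesin genes and those of the complexes that control the programme lay on both sides of 0. The median of 13 cohesin genes was -0.06, with 4 intervals wholly below 0 and 3 above it, and with Cdca5 (sororin) at -0.36 (-0.58 to -0.15), Sgo1 at -0.32, the loader Nipbl at 0.36 (0.31 to 0.42) and Mau2 at 0.14. Condensin II had Ncaph2 at -0.46 (-0.56 to -0.37) and Ncapg2 at -0.13. For DREAM and MuvB the median was -0.02 and the log2 ratio of the sums -0.14 (-0.17 to -0.11), with 3 intervals below 0 and 3 above it, among them the E2F partner Tfdp1 at -0.62 (-0.71 to -0.54), Rbbp4 at -0.30, Lin37 at 0.29 and the pocket protein gene Rbl2 at 0.17 (0.09 to 0.24).

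By list median, mitosis and G2 genes lay between DNA replication genes and the G1 list. The G1 list joins CDK inhibitors with G1 cyclins and kinases, for which no separate medians were taken. The order therefore describes the lists and not the phases. Of 39 DNA replication genes, 38 had a ratio below 0 (51.2% of all measured genes did), and 34 an interval wholly below it (29.0%). The median was -0.52, and 3 genes were called lower (Mcm2, Ung and Pold1), where 1.53% of all measured genes were. Lower calls among these 39 genes numbered 1 with DESeq2 or upper-quartile scaling, and 0 with the filter at 200 counts, the length adjustment or a 2-fold call. They numbered 14 by protein-coding and 39 by total counts, settings for which the share of all genes called is not given here. The helicase subunit gene Mcm2 was at -0.67 (-0.73 to -0.61) and Ung at -0.75 (-0.92 to -0.59). Of 14 measured CDK inhibitors and G1 cyclins, 2 were higher and 0 lower, around a median of -0.10, where 5.35% of all measured genes were higher. The called genes were the p21 gene Cdkn1a at 1.35 (1.26 to 1.44) and the p27 gene Cdkn1b at 0.79 (0.69 to 0.88), while Ccnd1 was at -0.56 and Ccne2 at -0.73. The difference between these lists was not tested, since each genotype has 1 library.

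**Figure D5:**
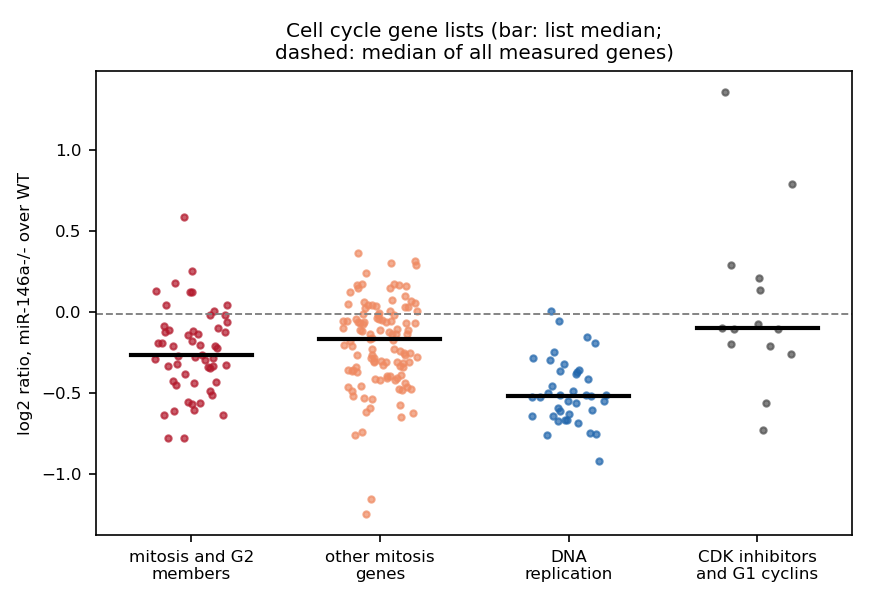
Log2 ratio of miR-146a-/- over WT for the 55 members, 116 other mitosis genes, 39 DNA replication genes and 14 CDK inhibitors and G1 cyclins (points), with list medians (bars: -0.27, -0.17, -0.52 and -0.10). The dashed line is the median of all measured genes, -0.01.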

How the data were processed

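RNA of LSK cells was measured in 1 miR-146a-/- library and 1 WT library after ribosomal RNA depletion, per the labels' protocols. The authors deposited raw counts, whole numbers for each Ensembl gene. Spliced alignments were used and duplicates flagged, per the file headers. STAR 2.5.3a, Salmon 0.9.0 and the build mm10 are named, without roles, in the submitters' processing notes. Which tool counted, whether by strand, and with which annotation is not given in the sources used here.

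GENCODE M21 named 37693 of 39017 identifiers, and the others held 0.168% of miR-146a-/- and 0.286% of WT counts. TMM scaling (edgeR 4.0.16, R 4.3.3) used genes with at least 20 summed counts. With 1 library per group the quasi-likelihood test could not be run. Log2 ratios used a prior count of 0.5, and 95% intervals are exact Clopper-Pearson bounds (scipy 1.17.1). Their code was run on simulated Poisson counts, the same model that the intervals assume. That run holds no duplicates or spread between pools, so it does not test the intervals for these libraries. A gene was called when its interval lay wholly beyond 1.5-fold. Exon overlap and copies of at least 95% identity over 200 bases (BLAST 2.17.0) marked 20 members as uncertain in part; the median ratio was -0.23 for them and -0.27 for the other 35.

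All 55 members are reported. In other lists, up to 2 genes in each direction are named, ranked by how far the interval bound nearest 0 lies from it. Members and lists were chosen with earlier results of these data known. Alternatives were DESeq2 1.42.0 size factors, upper-quartile and total-count scaling, other filters, folds and prior, list means and a length adjustment.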

Additional observations from a re-analysis of the deposited data

How the results depend on the processing

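The median over the members stayed below 0 under every alternative run, from -1.09 by total counts to -0.22 after the length adjustment; relative to the median of all genes it ran from -0.28 to -0.22. The all-gene median was -0.83 by total counts and -0.17 by protein-coding totals, against -0.01 by TMM, and values under these follow that shift. By total counts, 50 members were lower and 0 intervals lay above 0. The summed level was at -0.96, and group medians were -1.04 (cyclins and CDK1), -1.14 (mitotic kinases), -1.27 (checkpoint), -1.09 (anaphase), -1.15 (kinetochore), -1.02 (kinesins), -0.96 (spindle assembly), -1.03 (passengers), -1.03 (condensin) and -0.98 (transcription factors). Other mitosis genes had 98 lower (median -0.99), DNA replication 39 (-1.34), and the G1 list 9 lower and 0 higher (-0.92). By protein-coding totals, 4 members were lower and 2 intervals lay above 0, with the sum at -0.30. Medians were then -0.61 (checkpoint), -0.36 (kinesins), -0.31 (spindle assembly), -0.37 (passengers), -0.37 (condensin), -0.32 (transcription factors), -0.68 (DNA replication) and -0.26 (G1 list). Lower calls were 4 for other mitosis genes, 14 for DNA replication and 2 for the G1 list, with 1 higher. With no filter, lower calls were 2, 3 and 9 for members, other mitosis genes and DNA replication, 2 intervals lay above 0 and the sum was at -0.20. At a looser fold threshold, lower calls were 8, 12 and 24, with 2 in the G1 list. At 2-fold there were 0 lower calls in other mitosis genes and DNA replication, and 1 higher in the G1 list. After the length adjustment 2 member intervals lay above 0, and DNA replication had 0 lower calls; with at least 200 counts it had 0, and the summed level was at -0.10. DESeq2 and upper-quartile scaling each left 1. The mean of the G1 list was 0.030. A fold threshold sets its own count, and for filters and length the cause was not tested. The share of all measured genes called under each alternative is not given here. These counts of calls therefore cannot be read against the general rate. Sequencing depth limits single genes: Cdc25c, with 228 counts in all, could not be placed on either side of 0. No paired analysis was possible because each group has 1 library and the labels give no shared replicate number.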
